A study of Mus musculus with 6 samples.

Results

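The transcripts of p53 and 9 of its partners and targets were followed in acute myeloid leukemia (AML) blasts with and without TET2. The 10 genes were *Trp53*, which encodes p53, its inhibitors *Mdm2* and *Mdm4*, and the target genes *Ccng1*, *Phlda3*, *Trp53inp1*, *Zmat3*, *Aen*, *Eda2r* and *Sesn1*. They were chosen by symbol from the 53458 genes of the annotation, and 9 of the 10 held enough reads to be tested.

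The blasts carried *Cebpa*-/p30 in both groups, that is, 1 deleted *Cebpa* allele and 1 allele that makes only the short p30 form of CEBPA. The first group was *Cebpa*-/p30 *Tet2*+/+ (mice 19, 23 and 24), and the second was *Cebpa*-/p30 *Tet2*-/- (mice 5, 7 and 8), with 3 mice each and 1 library per mouse. The floxed alleles of C57BL/6J donor marrow were deleted by *Mx1*-Cre, an interferon-inducible Cre that is also active outside the blood, after transplantation into lethally irradiated adult female C57BL/6J.SJL recipients and injection of poly(I:C). Both groups therefore share the irradiated host, the poly(I:C) treatment and the *Cebpa* lesion, and no group without leukemia was analysed here. Ages at sampling were not given in the sources used here, since marrow was collected when each mouse became moribund. Live donor-derived cells without T-cell, B-cell and erythroid surface markers were sorted from this marrow after freezing. Which donors the 6 recipients were transplanted from is not given in the sources used here, and mice of a genotype may share one, so the p-values below measure only the spread between these mice. The time from deletion to sampling was set by illness and not matched between the genotypes. The paper reported a shorter median survival for *Tet2*-/- than for *Tet2*+/+ recipients. The part of this time in the values below was not tested.

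p53 is a transcription factor that is held at a low level by MDM2, a ubiquitin ligase that marks it for degradation, and by MDM4, which binds MDM2 and masks the activating domain of p53. After DNA damage or other stress p53 escapes this control and switches on genes of cell cycle arrest, apoptosis, DNA repair and metabolism, including *Mdm2* itself, which closes a feedback loop. Because p53 is governed mostly at the level of the protein, the amount of *Trp53* RNA is a poor guide to its activity, and the RNA of its targets is the usual readout. In AML, loss of p53 function marks a group of leukemias with poor response to therapy.

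p53 binds DNA through pairs of a short palindromic motif, each called a p53 half-site here, which is 10 bases long and equal in pattern to its own reverse complement. Promoter windows of 300 bases (250 before to 50 after a start) were taken from RefSeq, build GRCm38.p6, and held 8 of the 10 genes, all but *Trp53inp1* and *Zmat3*. A window with an exact p53 half-site was found for *Trp53*, *Mdm2*, *Ccng1*, *Sesn1* and *Aen*, and none for *Mdm4*, *Phlda3* and *Eda2r*. Among all 27025 genes with a window, 9.55% held one, and among all 32851 windows 8.36% did. The 5 sites are shown because they place the motif of the factor beside the genes measured below. Each stretch is 60 bases, printed 5′ to 3′ on the strand of the gene, and the capitals mark the p53 half-site.
Trp53: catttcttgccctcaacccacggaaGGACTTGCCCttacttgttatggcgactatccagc
Mdm2: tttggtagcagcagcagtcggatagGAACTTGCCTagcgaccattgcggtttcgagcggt
Ccng1: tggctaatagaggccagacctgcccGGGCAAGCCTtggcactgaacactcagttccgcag
Sesn1: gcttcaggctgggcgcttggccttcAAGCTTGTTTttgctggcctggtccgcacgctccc
Aen: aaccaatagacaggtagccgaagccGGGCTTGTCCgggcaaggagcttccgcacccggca

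These stretches lie at chr11:69580259-69580318 (*Trp53*, plus strand), chr10:117710910-117710969 (*Mdm2*, minus strand), chr11:40755437-40755496 (*Ccng1*, minus strand), chr10:41887241-41887300 (*Sesn1*, plus strand) and chr7:78895912-78895971 (*Aen*, plus strand). The motif began 75 bases before the start of *Trp53*, 186 before that of *Mdm2*, 185 before that of *Ccng1* and 173 before the downstream start of *Sesn1*. In *Aen*, which has 2 overlapping windows in RefSeq, it began 121 bases before the later start. Only *Ccng1* among the 8 genes held a second motif within 13 bases when 1 mismatch was allowed, a pair found in 1.24% of all genes. A match of letters is a description of these windows and not evidence of binding, and sites outside the windows were not searched.

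The libraries held between 13036643 and 32855343 reads assigned to transcripts, deepest in mouse 5. Mitochondrial genes held 2.655%, 3.408% and 3.351% of reads in *Tet2*+/+ mice 19, 23 and 24. In *Tet2*-/- mice 5, 7 and 8 they held 2.001%, 1.791% and 2.601%, without overlap between the genotypes. The part of this difference in the values below was not tested. A count of 3 reads, the number that a count of 0 still allows, corresponded to between 0.0949 and 0.211 CPM (reads scaled to a common library total), counting error only. Values below are CPM after TMM normalization, which scales libraries to a common middle of the gene distribution, unless given as TPM, which also corrects for transcript length. At the level of the whole gene, *Tet2*, the targeted gene, stood at 73.6, 79.4 and 98.4 CPM in *Tet2*+/+ mice and at 111, 79.4 and 96.7 CPM in *Tet2*-/- mice, and this total does not check the genotype because the exons that the floxed allele loses are not given in the sources used here. The markers of blasts and progenitors (*Kit*, *Cd34*, *Mpo*, *Elane*, *Ptprc*, *Itgam* and *Cebpa*) were all detected and summed to between 6150 and 8670 CPM. Markers of mature neutrophils (6 of 6 genes found) varied widely between mice, from 6590 CPM in mouse 23 to 75900 CPM in mouse 7. Lymphoid marker sums did not exceed 116 CPM in any mouse, and erythroid markers reached 53.5 CPM in mouse 19 against at most 6.23 CPM elsewhere. In RNA from a whole sorted population, fewer cells of one type and less RNA per cell cannot be told apart.

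No member of the p53 set differed between the genotypes after correction over all 22170 genes tested. With edgeR's quasi-likelihood test and Benjamini-Hochberg adjustment, 0 of the 9 tested genes had an adjusted p under 0.05, where 0.0451% of all genes (10 genes) did. DESeq2 also called 0 of the 9, against 2.16% of the 17803 genes to which it gave an adjusted p. At an unadjusted p under 0.05, 1 of the 9, *Zmat3*, was lower in *Tet2*-/- blasts and 0 were higher, where 8.11% of all genes fell under this limit, 5.12% lower and 3.0% higher in *Tet2*-/- mice. The median log2 fold change of the 9 genes was 0.05, 5 of them above 0 and 4 below, and that of all genes tested was 0.00.

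**Figure D1:**
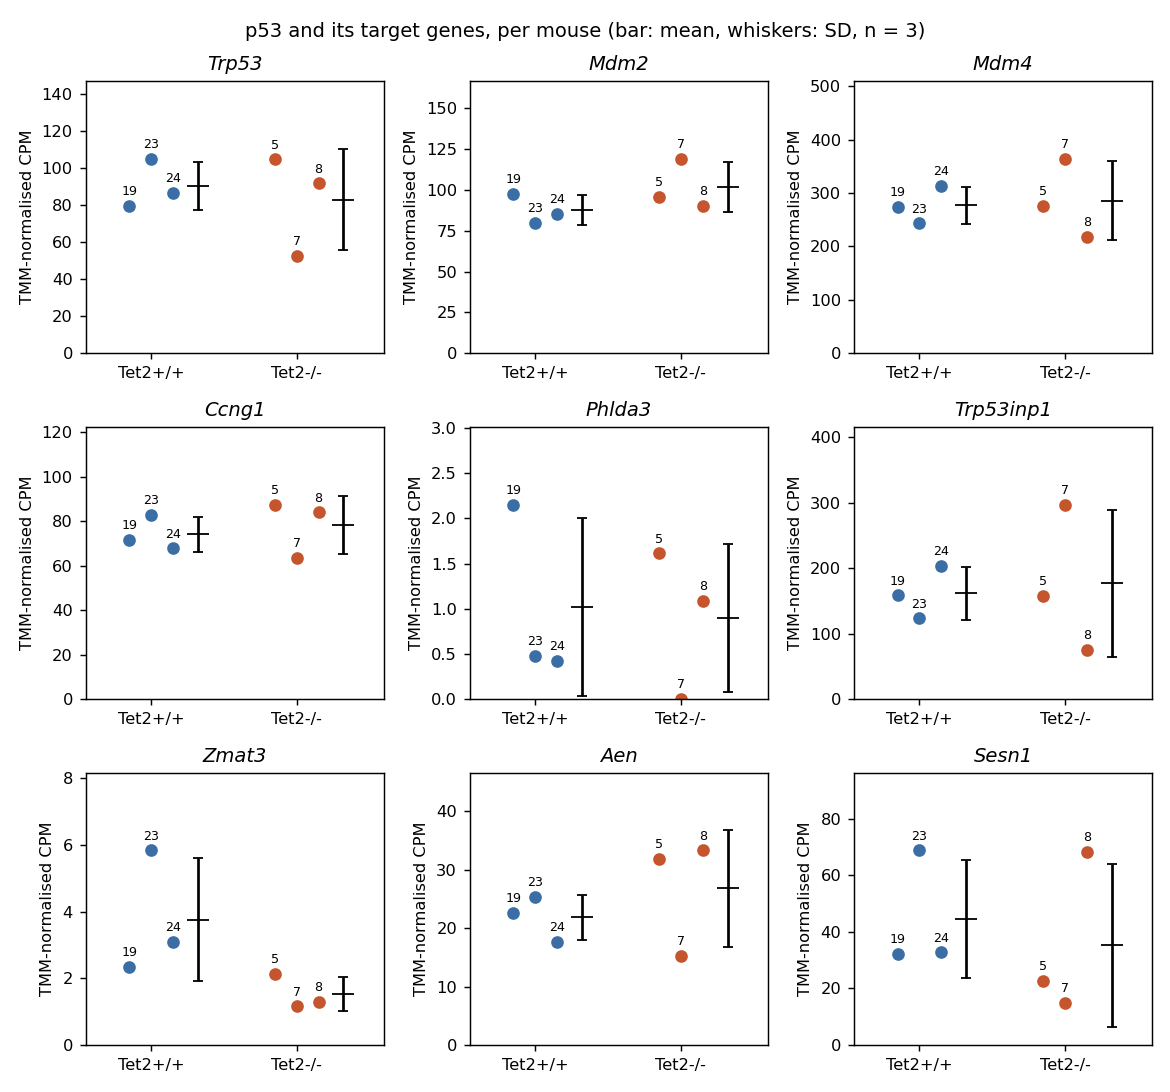
Levels of the 9 tested genes in TMM-normalised CPM (y axis, linear and from 0) in each mouse (numbered points), by *Tet2* genotype, with the mean and SD (n = 3) at the side. The genotypes overlap in every panel except *Zmat3*, and mouse 7 holds the lowest *Trp53* (52.8 CPM) and the highest *Trp53inp1* (297 CPM).

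*Trp53* itself (ENSMUSG00000059552, chr11:69580359-69591873) was well expressed, at 79.8, 105 and 86.9 CPM in *Tet2*+/+ mice 19, 23 and 24 and at 105, 52.8 and 91.9 CPM in *Tet2*-/- mice 5, 7 and 8. Mouse 7 lay lowest, the other 5 mice fell within a narrow band, and the genotypes overlapped. The means were 90.6 ± 13.1 (SD, n = 3) and 83.2 ± 27.1 (SD, n = 3) CPM, and the log2 fold change was -0.12 (standard error 0.27, 95% interval -0.76 to 0.52, adjusted p = 0.935, edgeR with Benjamini-Hochberg adjustment). Without mouse 7 the log2 fold change was 0.12, so that its sign rested on that mouse.

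*Mdm2* (ENSMUSG00000020184, chr10:117688875-117710758), at once the ligase that degrades p53 and one of its classic targets, was among the steadiest of these genes. It was measured at 97.7, 79.7 and 85.3 CPM in *Tet2*+/+ mice and at 95.9, 119 and 90.3 CPM in *Tet2*-/- mice. Mouse 7 was highest, mouse 23 lowest, and *Tet2*+/+ mouse 19 lay above 2 of the *Tet2*-/- mice. The log2 fold change was 0.22 (standard error 0.17, 95% interval -0.19 to 0.63, adjusted p = 0.795 from edgeR with Benjamini-Hochberg adjustment). The highest mouse exceeded the lowest 1.49-fold.

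*Mdm4* (ENSMUSG00000054387, chr1:132959484-133030561), the partner of MDM2 that inhibits p53 without degrading it, had 274, 243 and 314 CPM in *Tet2*+/+ mice and 276, 364 and 218 CPM in *Tet2*-/- mice. The highest and the lowest value both belonged to *Tet2*-/- mice (7 and 8), so the genotypes overlapped fully. The log2 fold change was 0.05 (standard error 0.23, 95% interval -0.50 to 0.60). Per length, *Mdm4* was the most abundant of the 10 transcripts, with a mean of 47.7 TPM.

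Among the targets, *Ccng1* (ENSMUSG00000020326, chr11:40748552-40755311) encodes cyclin G1, which recruits a phosphatase to MDM2. It was measured at 71.6, 83.0 and 67.8 CPM in *Tet2*+/+ mice and at 87.5, 63.6 and 84.0 CPM in *Tet2*-/- mice. Mouse 5 was highest and mouse 7 lowest, both *Tet2*-/-, and the whole range was 1.38-fold, the narrowest of the tested genes. Its log2 fold change was 0.08 (standard error 0.18, 95% interval -0.35 to 0.51).

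*Zmat3* (ENSMUSG00000027663, chr3:32334792-32366014), an RNA-binding zinc finger protein that acts in splicing downstream of p53, was the 1 gene of the set without overlap between the genotypes. It had 2.33, 5.83 and 3.10 CPM (39, 109 and 44 reads) in *Tet2*+/+ mice and 2.12, 1.16 and 1.302 CPM (67, 18 and 24 reads) in *Tet2*-/- mice. Every *Tet2*-/- mouse lay below every *Tet2*+/+ mouse, but mice 19 and 5 were close, and mouse 23 stood above the others. The means were 3.76 ± 1.84 (SD, n = 3) and 1.53 ± 0.519 (SD, n = 3) CPM. The log2 fold change was -1.29 (standard error 0.49, 95% interval -2.44 to -0.14), with an unadjusted p of 0.0332 and an adjusted p of 0.599 by edgeR, so the difference failed the correction. An exact two-sided permutation test gave p = 0.1, the smallest that 3 against 3 mice allow. Among the 8 genes of the set averaging at least 1 CPM, *Zmat3* was 1 without overlap, and 16.0% of all genes at that level showed none. With 1 mouse left out the log2 fold change lay between -1.61 and -0.84, and over all alternatives the adjusted p lay between 0.29 and 1. The summed markers of basophils and mast cells (4 genes, 2 of them, *Fcer1a* and *Prss34*, with at most 3 reads in every mouse) also did not overlap, at 275 to 366 CPM in *Tet2*+/+ and 22.2 to 94.8 CPM in *Tet2*-/- mice. Most of this sum was *Cpa3* in every mouse, with the rest largest in mouse 8 (*Cpa3* 16.8 and *Mcpt8* 5.32 CPM) as a part of the sum. *Mcpt8*, the other detected marker, overlapped between the genotypes. Of 36 marker genes of all 8 cell type lists averaging at least 1 CPM, 5 were lower in every *Tet2*-/- mouse than in any *Tet2*+/+ mouse and 1 was higher, with 16.0% without overlap among all genes at that level. The lower ones were *Cpa3*, *Cd34*, *Mpo*, *Itga2b* and *Ncr1*, and the higher one was the monocyte gene *Ly6c2*. They came from 5 lists, whose other members at that level overlapped between the genotypes. DESeq2 called *Cpa3* (adjusted p = 0.000194), *Ncr1* (0.00264) and *Ly6c2* (0.0248), where it called 2.16% of genes with an adjusted p. By edgeR their adjusted p was 0.283, 0.321 and 0.512. The part of these cells in the *Zmat3* values was not tested.

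*Aen* (ENSMUSG00000030609, chr7:78895854-78911209), an exonuclease that degrades DNA during apoptosis, had 22.6, 25.3 and 17.6 CPM in *Tet2*+/+ mice and 31.9, 15.2 and 33.3 CPM in *Tet2*-/- mice. Mice 5 and 8 lay above all *Tet2*+/+ mice, and mouse 7 below them all. The log2 fold change, 0.30 (standard error 0.32, 95% interval -0.47 to 1.06, adjusted p = 0.855, edgeR with Benjamini-Hochberg adjustment), thus averages mice on both sides of the *Tet2*+/+ range.

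*Trp53inp1* (ENSMUSG00000028211, chr4:11156431-11174379), a stress-induced nuclear protein of apoptosis and autophagy, varied over a 3.98-fold range. It stood at 158, 123 and 204 CPM in *Tet2*+/+ mice and at 158, 297 and 74.6 CPM in *Tet2*-/- mice. The 2 extremes were again *Tet2*-/- mice 7 and 8, and the 3 *Tet2*+/+ mice lay between them. Its log2 fold change was 0.13 (standard error 0.47, 95% interval -0.98 to 1.23), which allows a change of about 1 log2 unit in either direction. Without mouse 7 the value was -0.47 and without mouse 8 it was 0.49.

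*Sesn1* (ENSMUSG00000038332, chr10:41809935-41908424) encodes sestrin 1, which restrains the growth kinase mTORC1 and limits oxidative damage. It had 32.1, 68.8 and 32.7 CPM in *Tet2*+/+ mice and 22.6, 14.9 and 68.3 CPM in *Tet2*-/- mice. Mouse 23 of the first group and mouse 8 of the second stood together at the top, well above the other 4 mice. The log2 fold change was -0.34 (standard error 0.59, 95% interval -1.73 to 1.06, adjusted p = 0.915, edgeR with Benjamini-Hochberg adjustment). It was -1.25 without mouse 8 and 0.10 without mouse 23. The within-genotype SD of log2 CPM, 0.92, was the largest of the tested genes averaging at least 1 CPM, and the median over 13587 genes of that level was 0.36.

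The remaining targets had the fewest reads of the set. *Phlda3* (ENSMUSG00000041801, chr1:135766119-135769136), which competes with AKT for membrane lipids, had 36, 9 and 6 reads in *Tet2*+/+ mice and 51, 0 and 20 reads in *Tet2*-/- mice. These are 2.15, 0.482 and 0.422 CPM against 1.61, 0 and 1.08 CPM. Its log2 fold change of -0.15 had a standard error of 1.16, with a 95% interval from -2.89 to 2.60, so a difference of several-fold in either direction lies within the spread of these mice. *Eda2r* (ENSMUSG00000034457, chrX:97333840-97377216), a receptor of the tumor necrosis factor family for an ectodysplasin isoform, had 1 read in mouse 23, 1 in mouse 5 and none in the other 4 mice, and was not tested.

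**Figure D2:**
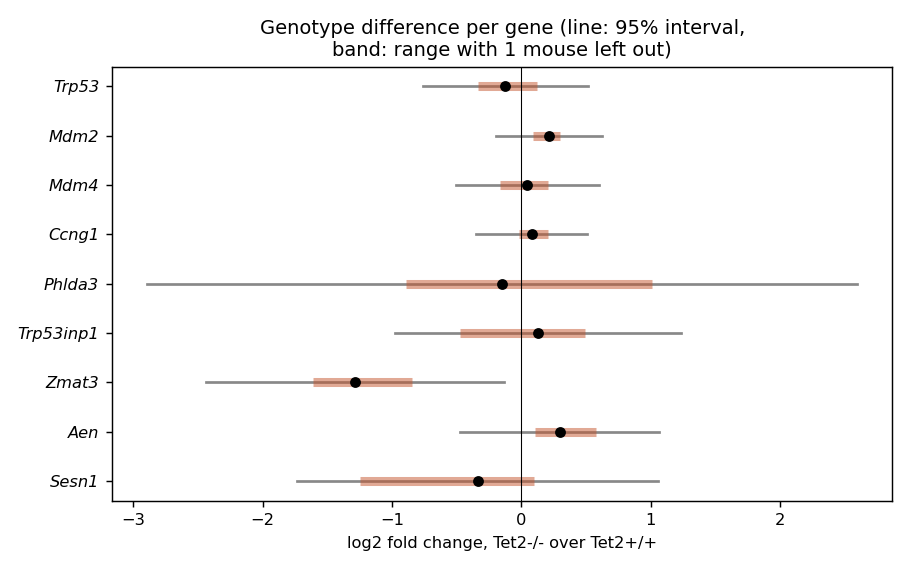
Log2 fold change of each tested gene, *Tet2*-/- over *Tet2*+/+ (x axis), from edgeR (black point), with its 95% interval (grey line) and the range of values when 1 of the 6 mice is left out (orange band). The interval of *Zmat3* (-2.44 to -0.14) is the only one that lies on one side of 0, and that of *Phlda3* is the widest.

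Ordered by mean TPM, which allows levels of different genes to be compared, the set ran *Mdm4*, *Trp53* (35.1 TPM), *Mdm2* (30.7 TPM), *Trp53inp1* (24.5 TPM), *Aen* (23.2 TPM), *Ccng1* (21.2 TPM), *Sesn1* (10.5 TPM), *Phlda3* (0.383 TPM), *Zmat3* (0.246 TPM) and *Eda2r*. Most neighbours in this order did not differ beyond the spread of the 6 mice. The ranges were apart only between *Sesn1* and *Phlda3* and between *Zmat3* and *Eda2r*. *Trp53inp1* lay above *Aen* in 3 of 6 mice, and *Phlda3* above *Zmat3* in 3 of 6.

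The transcripts behind these gene totals were compared next, because p53 genes are known for alternative starts and splice forms. The 10 genes have 57 annotated transcripts, 24 of which held at least 5% of the reads of their gene on average over all mice. Of the 23 whose gene had reads in every mouse, 0 were without overlap between the genotypes, and the lowest adjusted p of the exact permutation test was 0.92. A share is the percent of a gene's estimated reads that Salmon assigned to a transcript.

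*Sesn1* has 2 main starts that are 77504 bases apart and lead into 9 shared exons. *Sesn1-201*, which starts at 41887439 on chromosome 10 and has the p53 half-site printed above 173 bases before its start, had 27.0, 58.7 and 26.2 CPM in *Tet2*+/+ mice and 17.7, 10.5 and 63.9 CPM in *Tet2*-/- mice. *Sesn1-202*, which starts upstream at 41809935, had 5.13, 10.1 and 6.58 CPM against 4.99, 4.32 and 4.34 CPM. Both forms were high in mouse 23, while mouse 8 was high for the downstream start only. Levels spanned 6.07-fold between mice at the downstream start and 2.34-fold at the upstream one. No RefSeq window covers the start of *Sesn1-202*, and the other *Sesn1* window, which lies downstream of that start (chr10:41810324-41810623), held no exact motif. The share of *Sesn1-202* was 16.9% ± 2.82 (SD, n = 3) in *Tet2*+/+ and 19.2% ± 11.6 (SD, n = 3) in *Tet2*-/- blasts (exact permutation test, two-sided p = 0.8). Whether the motif bears on this range was not tested.

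**Figure D3:**
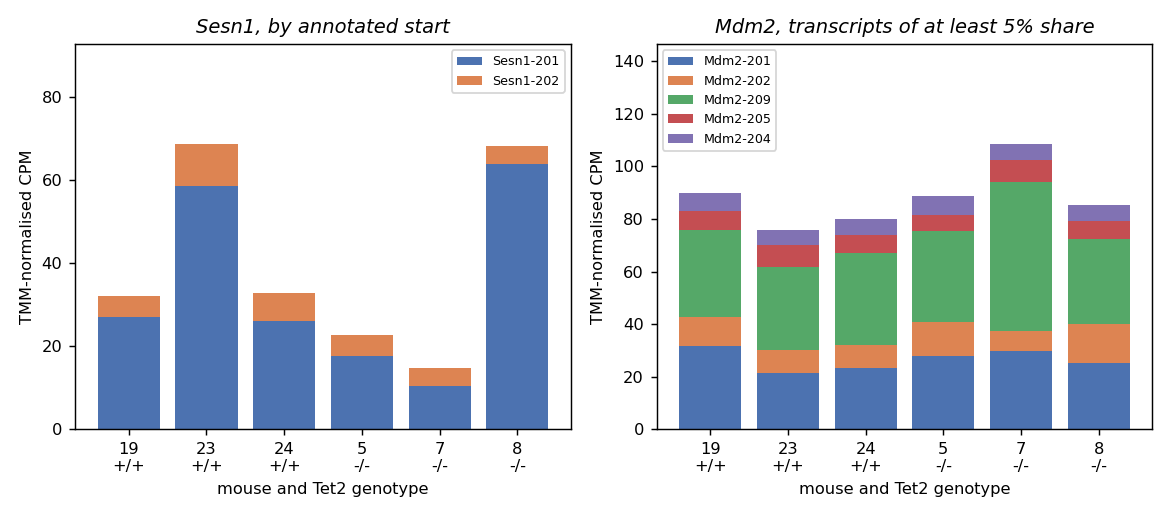
Levels of *Sesn1* transcripts (left) and of *Mdm2* transcripts with a mean share of at least 5% (right), stacked, in TMM-normalised CPM (y axis, from 0) per mouse. The tall *Sesn1* bars of mice 23 and 8 are made mostly of *Sesn1-201* (58.7 and 63.9 CPM), with *Sesn1-202* at its highest in mouse 23 (10.1 CPM). In the *Mdm2* bars, *Mdm2-209* is highest in mouse 7 (56.7 CPM), against 31.75 to 35.2 CPM in the others. *Mdm2-202* is lowest in mouse 7 (7.52 CPM) and highest in mouse 8 (14.9 CPM).

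In *Mdm2*, *Mdm2-209*, an annotated target of nonsense-mediated decay that begins inside the second exon and lacks an internal exon of 97 bases, held 33.9%, 39.8% and 41.3% of reads in *Tet2*+/+ mice and 36.1%, 47.6% and 35.8% in *Tet2*-/- mice. It was highest in mouse 7, and the genotypes overlapped (exact permutation test, two-sided p = 0.8). The full-length *Mdm2-201* held 28.9% ± 3.20 (SD, n = 3) and 27.4% ± 2.12 (SD, n = 3). *Mdm4-210* carried nearly all *Mdm4* reads, 92.5% ± 0.805 against 92.6% ± 0.701 (SD, n = 3 each), and *Ccng1-201* held 91.2% ± 0.964 against 92.9% ± 1.44 (SD, n = 3 each). From TPM the differences between the genotypes were 2.99 and 5.10 percentage points, against 0.091 and 1.69 from reads.

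For *Trp53*, *Trp53-201* and *Trp53-203* differ by 1 base, and Salmon divided their reads unevenly, with *Trp53-203* at 0% in mouse 23 and at 48.3% to 69.0% in the others. Their sum, formed after these values were seen, was 74.4% ± 5.96 in *Tet2*+/+ and 70.4% ± 4.53 in *Tet2*-/- blasts (SD, n = 3 each; exact permutation test, two-sided p = 0.4). *Trp53-202*, whose last exon begins 96 bases earlier, held 4.73%, 4.88% and 12.2% against 12.8%, 16.6% and 7.97%. Mice 5 and 7 were highest and mouse 8 lay within the *Tet2*+/+ range (exact permutation test, two-sided p = 0.2). This alternative last exon changes the C-terminal end of the protein. For *Zmat3*, the main pair of forms (*Zmat3-201* and *Zmat3-203*, also summed after their values were seen) held 88.6% ± 13.6 of reads in *Tet2*+/+ and 82.4% ± 8.49 in *Tet2*-/- blasts (SD, n = 3 each).

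The wider p53 network was described by 4 lists with 70 genes, 66 of which were tested. None of the 66 passed the adjusted threshold by edgeR (0.0451% of all genes did) or DESeq2, while 4 were lower and 3 higher in *Tet2*-/- blasts at an unadjusted p under 0.05. Over all genes 8.11% fell under this limit, 5.12% lower and 3.0% higher, and the counts of the single lists below are to be read against these shares. The lists held 26 regulators of p53, 12 targets of arrest and damage signalling, 12 targets of apoptosis and 20 targets of repair and metabolism. Among the 64 averaging at least 1 CPM, 10 showed no overlap between the genotypes, 4 with all *Tet2*-/- mice lower and 6 with all higher, and 16.0% of all such genes showed none.

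Of the regulators, 23 of 26 were tested, with 1 lower and 1 higher at an unadjusted p under 0.05 (5.12% and 3.0% of all genes) and a median log2 fold change of 0.08. *Usp2*, a deubiquitinase that stabilises MDM2, had 3.76 ± 1.63 CPM in *Tet2*+/+ and 8.69 ± 1.96 CPM in *Tet2*-/- blasts, 1.21 higher on the log2 scale (standard error 0.39, unadjusted p = 0.0171 and adjusted p = 0.539 by edgeR). *Trp53bp1*, the 53BP1 scaffold of double-strand break repair, had 42.8 ± 4.08 against 25.4 ± 8.64 CPM (log2 fold change -0.76, standard error 0.28, unadjusted p = 0.0316 and adjusted p = 0.598), and 15.04% of its exon bases overlap *Tubgcp4* on the opposite strand, which libraries made without strand marking cannot separate. *Atm*, the kinase that signals breaks to p53, had 32.4 ± 8.10 against 22.5 ± 5.44 CPM with a log2 fold change of -0.53, which became 0.35 on length-scaled counts, so no direction is given for it. *Ep300*, a histone acetyltransferase that acetylates p53, had 232 ± 17.7 against 308 ± 62.5 CPM (log2 fold change 0.41, adjusted p = 0.654). Its log2 fold change was 0.23 without mouse 7 and 0.22 with library size only. *Cdkn2a*, whose Arf product blocks MDM2, had 2.75, 1.45 and 1.27 CPM against 4.30, 0.836 and 7.27 CPM, overlapping between genotypes (log2 fold change 1.18, adjusted p = 0.734, but 0.51 on the log2 scale without mouse 8).

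Of the targets of arrest and damage signalling, 11 of 12 were tested, 10 of them with a log2 fold change above 0, and the median was 0.43 against 0.00 over all genes. The exception was *Plk2*, a polo-like kinase, at -1.37 (standard error 0.81), and the median rested on mouse 7, being 0.05 without it. Mouse 7 held the highest level of 8 of the 11 genes, while it was highest for 25.2% of the 13839 genes averaging at least 1 CPM. It was also lowest for 4248 of these 13839 genes. In the p53 set, mouse 7 was highest for 3 and lowest for 6 of the 9 tested genes. Its library had the lowest TMM factor (0.867) and the largest share of reads in its top 10 genes (12.4%). The part of these library traits was not tested. This mouse also had the highest sum of mature neutrophil markers, 75860 CPM against 6589 to 39170 CPM in the others, and their part in the list's levels was not tested. Examples picked after their values were seen are *Btg2*, an antiproliferative regulator of mRNA decay, with 649 CPM in mouse 7 and 114 to 291 CPM in the other 5, *Plk3*, a stress-response kinase, with 125 against 15.04 to 35.3 CPM, and *Gadd45a*, a damage-induced growth arrest gene, with 284 against 35.1 to 124 CPM. *Cdkn1a*, the p21 inhibitor of cyclin-dependent kinases and a standard readout of p53, did not follow mouse 7. It had 41.1, 59.3 and 11.3 CPM in *Tet2*+/+ mice and 74.2, 42.9 and 88.6 CPM in *Tet2*-/- mice, highest in mice 8 and 5 with mouse 7 inside the *Tet2*+/+ range (log2 fold change 0.88, standard error 0.56, adjusted p = 0.735 by edgeR). The log2 fold change was 0.45 without mouse 24 and 1.38 without mouse 23. *Gtse1*, a G2 and S phase protein that moves p53 out of the nucleus, had 26.3 ± 9.22 against 50.6 ± 9.04 CPM without overlap (log2 fold change 0.95, standard error 0.28, unadjusted p = 0.0115 and adjusted p = 0.500 by edgeR). It was the 1 gene of the list under an unadjusted p of 0.05, where 3.0% of all genes were higher.

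Of the 12 apoptosis targets, all were tested, 2 were lower and 1 higher at an unadjusted p under 0.05 (5.12% and 3.0% of all genes), and the median was 0.02. *Pmaip1*, the BH3-only protein NOXA, had 68.5, 95.9 and 36.8 CPM in *Tet2*+/+ mice and 30.5, 40.9 and 39.9 CPM in *Tet2*-/- mice. Mouse 24 fell among the *Tet2*-/- mice, and the log2 fold change was -0.86 (standard error 0.34, unadjusted p = 0.0392 and adjusted p = 0.604 by edgeR). It was -0.52 without mouse 23 and -1.15 without mouse 24. *Bax*, the pore-forming effector of mitochondrial apoptosis, had 32.5, 52.3 and 26.0 CPM against 51.5, 26.6 and 60.9 CPM, overlapping between the genotypes. *Bax* shares 12.18% of its exon bases with *Gm45808* on the same strand, so its counts are uncertain. *Trp53i11*, a p53-induced gene, had 17.2 ± 3.41 against 9.81 ± 1.92 CPM (log2 fold change -0.81, unadjusted p = 0.0158 and adjusted p = 0.527), and *Siva1*, a proapoptotic protein, 26.2 ± 4.91 against 43.2 ± 8.71 CPM (log2 fold change 0.72, unadjusted p = 0.0149 and adjusted p = 0.526). The transcripts of *Siva1* share sequence with pseudogenes, so its counts are uncertain.

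Of the 20 targets of repair and metabolism, all were tested, 1 was lower and none higher at an unadjusted p under 0.05 (5.12% and 3.0% of all genes), and the median was -0.04. The lower gene, named after its values were seen, was *Ak1*, an adenylate kinase. It had 0.897, 0.749 and 0.634 CPM (15, 14 and 9 reads) in *Tet2*+/+ mice and 0.285, 0.386 and 0.271 CPM (9, 6 and 5 reads) in *Tet2*-/- mice. Its CPM did not overlap (log2 fold change -1.27, standard error 0.46, unadjusted p = 0.0276 and adjusted p = 0.588 by edgeR). With a mean under 1 CPM, it lies outside the genes for which a share without overlap is given. *Gdf15*, a secreted stress cytokine, had 1.77 ± 0.558 against 0.911 ± 0.275 CPM (log2 fold change -0.95, standard error 0.47, adjusted p = 0.654). *Wrap53*, the telomerase Cajal body protein whose gene lies beside *Trp53*, had 10.9, 12.9 and 11.8 CPM in *Tet2*+/+ mice and 17.4, 13.8 and 13.1 CPM in *Tet2*-/- mice. The genotypes did not overlap, but mice 23 and 8 were nearly level, and the log2 fold change was 0.32 (standard error 0.22, adjusted p = 0.759). It was 0.17 without mouse 5 and 0.14 with library size only.

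**Figure D4:**
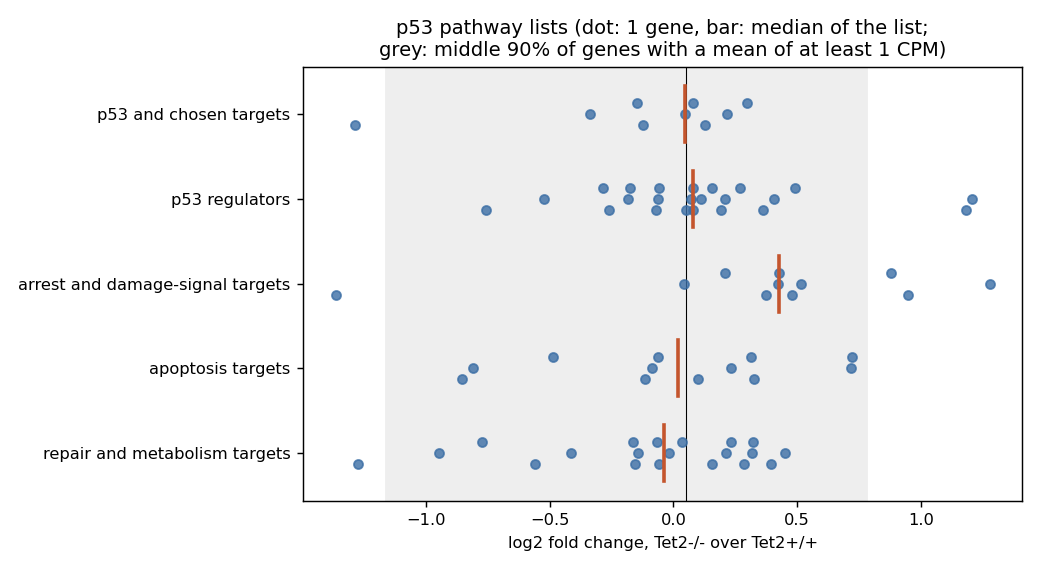
Log2 fold change, *Tet2*-/- over *Tet2*+/+ (x axis), of each tested gene (dots) of the p53 set and of the 4 wider lists (rows), with the median of each list (orange bars) and the middle 90% of the 13839 genes averaging at least 1 CPM (grey). The arrest and damage list has its median at 0.43 and the others lie between -0.04 and 0.08.

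Markers of mature neutrophils differed between mice in an order that *Sesn1* followed in reverse, and *Trp53* and *Zmat3* with 1 exception each, a pattern picked after the values were seen. The summed level of these 6 markers (*Ltf*, *Camp*, *Ngp*, *Retnlg*, *S100a8* and *Mmp8*) was 37550, 6589 and 25240 CPM in *Tet2*+/+ mice and 39170, 75860 and 15450 CPM in *Tet2*-/- mice, overlapping between the genotypes. *Sesn1* ranked in the reverse order of this sum in all 6 mice, from 68.8 CPM in mouse 23 with the lowest sum to 14.9 CPM in mouse 7 with the highest. This order rested on close values, 68.8 and 68.3 CPM in mice 23 and 8 and 32.7 and 32.1 CPM in mice 24 and 19. In TPM it did not hold, with 17.0 in mouse 23 and 23.3 in mouse 8. How many of all genes follow this order was not counted. *Trp53* followed the same reverse order except in mouse 5, and *Zmat3* except in mouse 8. Other members did not follow it. *Mdm2* was lowest in mouse 23 (79.7 CPM) and highest in mouse 7 (119 CPM), and *Mdm4* was also highest in mouse 7 (364 CPM). *Trp53inp1* was highest in mouse 7 and lowest in mouse 8, and *Phlda3* was highest in mouse 19 and at 0 in mouse 7. The sort did not remove neutrophils by a marker of their own. The part of these cells in the variation was not tested.

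**Figure D5:**
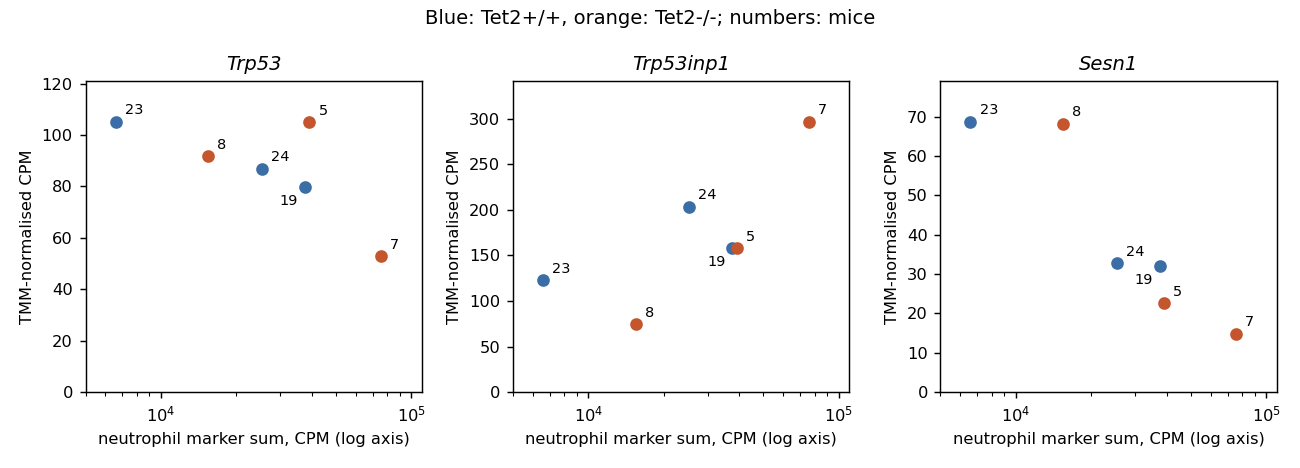
Levels of *Trp53*, *Trp53inp1* and *Sesn1* in TMM-normalised CPM (y axis, from 0) against the summed CPM of the 6 mature neutrophil markers (x axis, log scale), 1 point per numbered mouse, with *Tet2*+/+ in blue and *Tet2*-/- in orange. *Sesn1* falls from 68.8 CPM in mouse 23 to 14.9 CPM in mouse 7 as the sum increases, with mice 23 and 8 nearly level.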

How the data were processed

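RNA-seq libraries (TruSeq, without strand marking) of 6 mice were analysed, 3 per genotype. The authors quantified reads with Salmon 0.12.0 (version per the submitters' processing notes) against Ensembl transcripts of GRCm38. The estimated counts deposited by the authors are reads per transcript, not scaled between mice, and the TPM values deposited by the authors are scaled by effective length to one total. The effective lengths deposited by the authors were used only for length-scaled counts. Estimated counts of 136288 transcripts (112 without a gene left out) were summed to 53458 GENCODE M21 genes with Python 3.11.15 and pandas 2.3.3, then rounded. The 22170 genes whose normalised counts summed to at least 10 were tested with edgeR 4.0.16 in R 4.3.3 (TMM, quasi-likelihood, Benjamini-Hochberg, threshold 0.05). The biological coefficient of variation was 43.6%. Standard errors were derived from the log2 fold change and its F statistic. Single values were compared by exact two-sided permutation, which cannot go below 0.1 here. The alternatives were DESeq2 1.42.0 (the tool of the authors), length-scaled counts with either tool, no filter, filterByExpr, library size only, RLE, robust fitting, leaving out each mouse, and TPM for transcript shares.

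The members and lists were chosen with earlier results of these data known. All members, *Tet2*, *Cdkn1a*, *Bax*, *Cdkn2a* and *Pmaip1* are named, with up to 4 genes per wider list that had the largest changes without overlap at a mean of at least 1 CPM. Of the wider lists, *Trp63*, *Trp73* and *Rprm* were under the filter and the symbol *Trp53rk* was not matched. Shared sequence was sought with BLAST+ 2.17.0 (at least 95% identity over 50% of a transcript), and no member shared sequence or exon bases with another gene. Figures were drawn with matplotlib 3.10.9.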

Additional observations from a re-analysis of the deposited data

How the results depend on the processing

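The count of p53 set genes past the adjusted threshold was 0 under all 14 alternatives, as was that of each of the 4 wider lists. Over all genes, the count was 10 by edgeR, 385 by DESeq2, 5 with length-scaled counts in edgeR, 386 with these in DESeq2, 66 without a filter, and from 0 to 7 with 1 mouse left out (0 without mouse 5, 7 or 8, 1 without mouse 24 and 2 without mouse 23). The causes of these differences were not tested, but leaving out a mouse leaves fewer samples. No paired analysis was possible because the mice share no replicate numbers.

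Log2 fold changes that turned their sign on length-scaled counts (edgeR, then DESeq2) were *Mdm4* (-0.022 and -0.017), *Phlda3* (0.10 and 0.069), *Sesn1* (0.049 and 0.049) and *Atm* (0.35 and 0.36). With library size only, which moved the median of all genes to -0.17, they were *Mdm4* (-0.15), *Ccng1* (-0.087) and *Trp53inp1* (-0.091), and the medians became -0.068 for the regulators, -0.145 for the p53 set, -0.163 for the apoptosis list, -0.208 for the repair list and 0.204 for the arrest list. The median of the p53 set was also -0.023 without a filter, and on length-scaled counts in edgeR that of the apoptosis list was -0.11 and that of the repair list 0.053. With 1 mouse left out, log2 fold changes ranged from -0.34 to 0.12 for *Trp53*, -0.17 to 0.21 for *Mdm4*, -0.015 to 0.21 for *Ccng1*, -0.89 to 1.01 for *Phlda3*, -0.47 to 0.49 for *Trp53inp1* and -1.25 to 0.10 for *Sesn1*. The medians ranged from -0.041 to 0.14 for the regulators, 0.005 to 0.23 for the apoptosis list, -0.024 to 0.089 for the p53 set, -0.09 to 0.064 for the repair list and 0.053 to 0.72 for the arrest list. Differences in transcript share, in percentage points, ranged from -2.73 to 8.65 for *Sesn1-202*, -2.43 to 3.49 for *Mdm2-209*, -0.21 to 0.55 for *Mdm4-210*, -7.43 to 0.78 for *Trp53inp1-202* and -8.04 to 1.53 for *Aen-201*, which was 0.19 with TPM and -3.98 with reads. With TPM in place of reads, the difference was 2.99 for *Mdm4-210* (0.091 with reads), 5.10 for *Ccng1-201* (1.69), 0.478 for *Mdm2-209* (1.465) and 1.37 for *Sesn1-202* (2.25). The causes were not tested. *Zmat3*, *Mdm2* and *Aen* kept their sign under every alternative. *Eda2r*, with 2 reads in all, was below what this depth can measure.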
